A study of Mus musculus with 2 samples.

Results

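Rab GTPases and SNARE proteins, with the regulators that act on them, form the membrane traffic machinery by which a neutrophil stores and releases its granules. Their genes were compared between 2 arrays of bone marrow neutrophils, 1 from mice labelled Jdp2 KO and 1 from mice labelled Jdp2 WT. Members were all genes whose symbol follows the naming of the Rab, syntaxin (Stx), VAMP, SNAP-25, syntaxin-binding (Stxbp), Vti1, synaptotagmin (Syt) and synaptotagmin-like (Sytl) families, together with Unc13d. The rule uses names and no measured value. It found 110 genes among the 18193 genes with a named probe set, read by 251 probe sets, of which 39 genes had 1 probe set and 71 had several. Because it takes whole families, it also holds Rabs of the ER and Golgi and synaptotagmins known mainly from neurons, which are not granule genes.

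Neutrophils were sorted by flow cytometry as CD11b+, Ly6G+ cells with low Ly6C. Both groups had the strain C57BL/6 /129/J mixed background, one with Jdp2 wild type and the other Jdp2-/-. Jdp2 encodes a transcription factor that pairs with Jun proteins and can repress their targets. The sources used here do not give the age of the mice, how many mice stand behind each array, or which part of Jdp2 was deleted. There was 1 array per genotype, so the values describe these arrays, carry no p-value and give no measure of how mice vary. In a sorted bulk sample, fewer cells of a type and less RNA per cell cannot be told apart.

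Rab proteins are small GTPases that switch between a GTP-bound form, which recruits effectors to one kind of membrane, and a GDP-bound form. SNAREs sit on both membranes, and a VAMP on the vesicle zips together with a syntaxin and a SNAP-25 type protein on the target, which brings the membranes to fusion. Stxbp (Munc18) and Unc13 (Munc13) proteins prepare syntaxins for that step. In neutrophils, Rab27a and its effectors are known for docking granules at the plasma membrane, and Unc13d, Stx11 and Stxbp2 are genes of inherited disorders of immune cell degranulation.

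The labels and cell type were looked at first. Jdp2 read 12.38 on the array labelled KO and 11.997 on the array labelled WT at its stronger probe set and 5.40 against 5.24 at the other. The targeted gene thus gave no check of the labels, and KO and WT below mean the array so labelled. All values are log2 signals, and differences are KO minus WT. Neutrophil markers were present on both arrays: 8 of 10 listed genes had a named probe set, all 8 lay above the median of all probe sets, and their median difference was 0.03. Markers of monocytes and macrophages were higher on the KO array, with 10 of 14 passing genes at least 2-fold higher, beside 3.06% of all genes. Their median difference was 1.17 and their summed linear signal 11269 against 6853. Of the 14, 5 had their WT value below the array median, so they passed through the KO array alone and had to read higher there. With such values raised to that median the count was 7 of 14 and the median difference 0.94. Of the 15 measured, 1 lay below the median on both arrays, and the scale has no 0. Platelet and megakaryocyte markers had a median of 0.76 over 7 genes and a summed signal of 4874 against 2911, with 1 of 8 measured below the median on both arrays. Shorter lists for erythroid, B, T and NK, dendritic and other granulocytic cells had 2 to 5 passing genes each and, with weak values raised in the same way, medians from -0.31 to 0.39. The part of these cells in the results below was not tested.

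Of the 110 members, 84 passed the level filter, which asks that the higher of a gene's 2 values reach the median of all probe sets on its array. A gene that passed through 1 array alone had to differ, which was the case for 7 of the 84. No member was at least 2-fold higher on the KO array, where 3.06% of all 11168 genes that passed were, and 3 were at least 2-fold lower, beside 2.33% of all genes. These 3 were Rab13, Rab20 and Syt1. At a smaller size, 2 of 84 members were at least 1.5-fold higher, beside 8.49% of all genes, and 10 were at least 1.5-fold lower, beside 8.86%. Rab13, Rab34 and Snap25 are in the lower count but passed through the WT array alone, so they had to read lower on the KO array. Syt11 is in the higher count and passed through the KO array alone. With values below the array median raised to it, Rab13 was 2.34-fold, Rab34 1.14-fold and Snap25 1.49-fold lower, and Syt11 1.29-fold higher. The median difference of the members was -0.12 against -0.04 for all genes, and 52 of the 84, or 61.9%, read below 0, beside 55.1% of all genes. The middle part of the members, from the 25th to the 75th percentile, ran from -0.34 to 0.10, and that of all genes from -0.27 to 0.20.

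**Figure D1:**
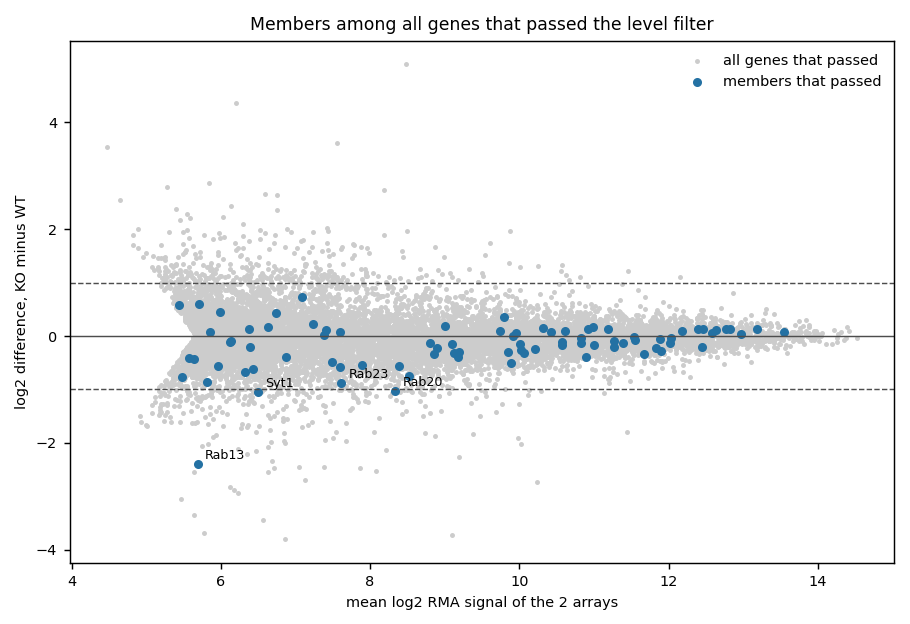
Mean log2 signal of the 2 arrays (x axis) against the log2 difference, KO minus WT (y axis), for the 11168 genes that passed the level filter (grey) and the 84 members among them (blue); dashed lines mark 2-fold. Rab13, at -2.40, lies apart from the other members, and no member lies above the upper dashed line.

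Differences were small among members with strong signal. In 57 members the higher value reached the 75th percentile of all probe sets, and the median absolute difference there was 0.15, against 0.19 for all genes at that level. Of these 57, 3 differed by at least 1.5-fold in either direction, beside 10.3% of all genes at that level. They were Rab20, Rab23 and Stx2, all lower on the KO array. Of the same 57, 37 read below 0, or 64.9%, beside 58.8% of all genes at that level. A gene that reached that percentile through the WT array alone had to read lower on the KO array. Rab23 and Snap47 were among the members that reached it that way. Rab23 is in both counts and Snap47 in the count below 0. Over all 84 passing members, weak ones included, the median absolute difference was 0.18, against 0.24 for all genes.

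Secretory Rabs, which bring vesicles to the plasma membrane, had 9 genes on the array and 6 that passed, with a median difference of -0.31. Rab27a, the main Rab of granule docking in neutrophils, read 12.46 on the KO array and 12.33 on the WT array, a difference of 0.13. Its 4 probe sets all passed and ran from -0.27 to 0.61, so they lay on both sides of 0. Rab27b, its close relative, read 6.71 and 6.55, a difference of 0.16 that was also slightly above 0.

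The remaining secretory Rabs that passed all read lower on the KO array, none by 2-fold. Rab3d, a Rab of secretory granules in exocrine and mast cells, read 11.50 against 11.84. Its difference was -0.34, and its 4 probe sets ran from -0.57 to 0.00. Rab37, known from mast cell granules, read 8.99 against 9.38, a difference of -0.39, and its second probe set was close, at -0.33. Rab44, a large Rab with an added calcium-binding region, read 11.75 against 12.03 at its only probe set. Rab3a, the Rab of synaptic vesicles, showed the lowest value of the group at weaker signal, with 5.98 against 6.66 and a difference of -0.68. Its second probe set did not pass, and the mean of both was -0.05. Rab3b, Rab3c and Rab26 did not pass the level filter.

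Early endosomal Rabs, which act in uptake and in the first steps after it, read slightly lower as a group. Of 8 passing genes, 7 were below 0, beside 55.1% of all genes, and the median was -0.22 against -0.04 for all genes. Rab5a, Rab5b and Rab5c are close relatives that drive fusion of early endosomes and are found on new phagosomes. Rab5a read 10.51 against 10.63, Rab5c read 11.18 against 11.37, and Rab5b read 7.31 against 7.89. All 3 were thus lower on the KO array, and Rab5b, at -0.59 and -0.57 in its 2 probe sets, was just past the 1.5-fold line, which it did not reach after quantile or loess scaling. Rab4b, a Rab of fast recycling, read 9.70 against 10.00, and Rab22a, which acts with Rab5 effectors, read 10.09 against 10.33, with 4 probe sets between -0.53 and -0.01. Rab21, which carries integrins inward, differed by -0.23 and Rab14, which acts between Golgi and endosomes, by -0.21, although the 7 probe sets of Rab14 reached 0.28. The exception was Rab31, which carries cargo from the Golgi to endosomes and read 12.89 against 12.76, with 0.13 in both probe sets.

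Recycling and polarised transport Rabs held the member with the largest difference and otherwise sat near 0. Rab13, known for delivering junction proteins to the surface of epithelial cells, read 4.49 on the KO array and 6.89 on the WT array. That is a difference of -2.40, or 5.28-fold lower, at its only probe set. The KO value lay below the array median, where RMA values hold background as well as signal, and with it raised to that median the difference came to 2.34-fold. Both start sites that RefSeq lists for Rab13 are shown because it differed most (GRCm38.p6, plus strand, 250 bases before to 50 after each start, in lower case since none of the motifs described below occurs).
Rab13, chr3:90213465-90213764: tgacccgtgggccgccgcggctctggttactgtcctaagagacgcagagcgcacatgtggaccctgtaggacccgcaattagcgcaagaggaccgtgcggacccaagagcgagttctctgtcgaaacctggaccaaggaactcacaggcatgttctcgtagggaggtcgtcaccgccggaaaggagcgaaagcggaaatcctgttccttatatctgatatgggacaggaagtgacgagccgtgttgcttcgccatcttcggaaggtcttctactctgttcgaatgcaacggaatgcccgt
Rab13, chr3:90220534-90220833: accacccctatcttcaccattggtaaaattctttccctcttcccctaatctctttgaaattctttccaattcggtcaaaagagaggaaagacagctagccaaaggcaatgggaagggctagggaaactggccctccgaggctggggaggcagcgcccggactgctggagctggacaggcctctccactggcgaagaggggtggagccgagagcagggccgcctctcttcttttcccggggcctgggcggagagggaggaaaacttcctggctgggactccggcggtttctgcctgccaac

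The other 8 passing Rabs of that group lay between -0.21 and 0.05. Rab15, a Rab of recycling endosomes, differed by -0.21, and Rab35, of fast recycling, read 10.49 against 10.66. Rab11a and Rab11b, the Rabs that define recycling endosomes, differed by -0.08 and 0.05, and Rab8b by 0.04. Rab8a, of transport to the cell surface, read 11.52 against 11.54 at its stronger probe set, a difference of -0.02. A second passing probe set of Rab8a read 8.95 against 7.61, a difference of 1.35, so the probe sets of this gene did not show the same thing. The group median was -0.03 and came to 0.00 with 5 of 9 genes above 0 once a loess trend on level was removed.

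**Figure D2:**
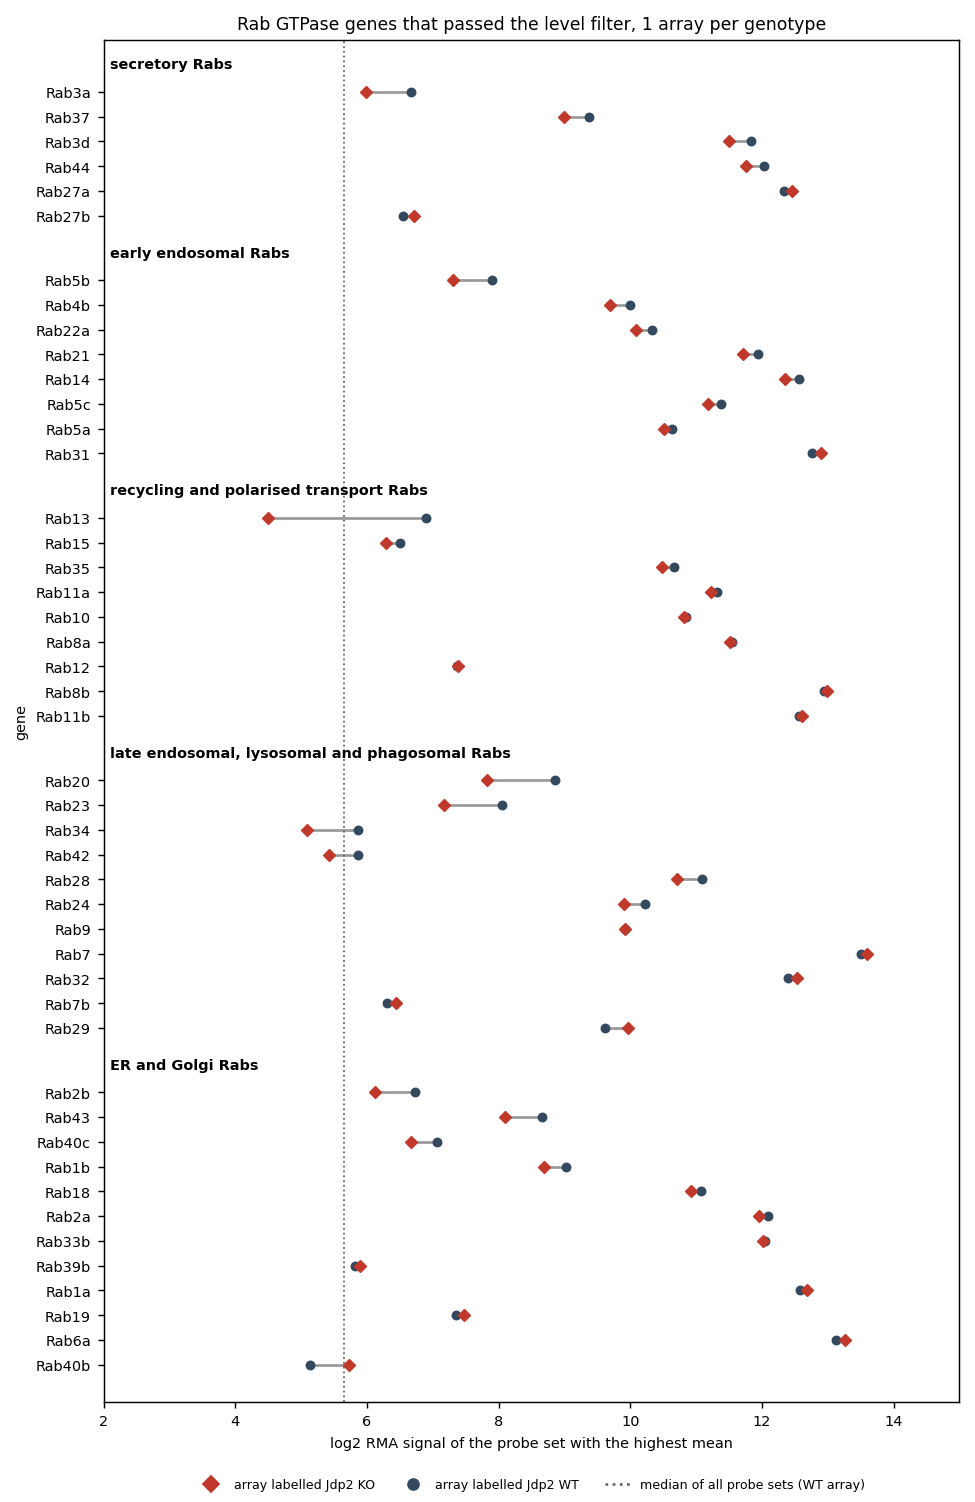
Log2 signal (x axis) of each Rab gene that passed the level filter on the array labelled KO (red diamonds) and the array labelled WT (dark circles), grouped by role; the dotted line is the median of all probe sets on the WT array. The 2 symbols nearly overlap for most genes, and the long bar belongs to Rab13, at 4.49 against 6.89.

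Late endosomal, lysosomal and phagosomal Rabs had a median of -0.32, with 7 of 11 passing genes below 0, beside 55.1% of all genes. Rab34 and Rab42 passed through the WT array alone and so had to read lower on the KO array. Of the 11, 3 were at least 1.5-fold lower, where 8.86% of all genes were. After quantile or loess scaling the median was -0.26 and 6 of 11 genes read below 0. With values below the array median raised to it, the median was -0.19 and 2 genes were at least 1.5-fold lower, Rab34 being the one lost. Rab20, known for its part in the maturation of phagosomes in macrophages, read 7.82 on the KO array and 8.85 on the WT array. It was 2.05-fold lower at its only probe set, with both values above the array median. After quantile or loess scaling the difference was -0.96 or -0.95, just short of 2-fold. Its RefSeq promoter window is shown because it was the only member past 2-fold that had strong signal (GRCm38.p6, minus strand, written 5′ to 3′).
Rab20, chr8:11478591-11478890: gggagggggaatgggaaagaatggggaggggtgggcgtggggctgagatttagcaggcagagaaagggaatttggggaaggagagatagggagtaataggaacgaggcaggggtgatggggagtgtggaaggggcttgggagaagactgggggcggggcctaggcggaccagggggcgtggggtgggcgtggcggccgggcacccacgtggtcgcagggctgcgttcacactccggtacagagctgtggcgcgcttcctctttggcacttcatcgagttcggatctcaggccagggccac

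Rab23, best known as an inhibitor of Hedgehog signalling at the primary cilium, read 7.17 against 8.06, a difference of -0.89 or 1.85-fold lower. Its second passing probe set read 6.54 against 7.85, a difference of -1.31, and another below the level filter differed by -0.67. All 3 probe sets of Rab23 thus lay well below 0, and its passing pair spanned the 2-fold line. Rab34, which positions lysosomes, read 5.09 against 5.86, a difference of -0.77 that came to 1.14-fold with the KO value raised to the array median. Rab24, linked to autophagy, and Rab28 were lower in both of their probe sets, from -0.39 to -0.32 and from -0.39 to -0.24. The main Rab of late endosomes, Rab7, read 13.59 against 13.51, and Rab32, which acts on lysosome-related organelles and phagosomes, read 12.53 against 12.40. Both were slightly higher on the KO array at these probe sets, as was Rab29, a Rab that binds the kinase Lrrk2, at 9.97 against 9.62. The second passing probe set of Rab7 lay below 0, at 11.27 against 11.43, a difference of -0.16. Rab9, of transport from late endosomes to the Golgi, differed by -0.003, and its sign was not the same under every scaling.

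ER and Golgi Rabs, which serve the early secretory pathway, had a median of -0.08 over 12 passing genes, 7 below 0 and 5 above. Rab1a, of transport from ER to Golgi, read 12.69 against 12.57, while Rab1b, its near relative, read 8.68 against 9.02. In another pair, Rab2a differed by -0.13, with 7 probe sets from -0.28 to 0.23, and Rab2b read 6.12 against 6.73, a difference of -0.61. At the probe sets taken, both pairs therefore held 1 member near 0 and 1 that read lower. A weaker passing probe set of Rab1a was at -0.31. Only 1 of the 5 probe sets of Rab2b passed, and the mean of all 5 was -0.35. Rab6a, the main Rab of the Golgi, read 13.26 against 13.13, with all 3 probe sets above 0, between 0.05 and 0.37. Rab43, also of the Golgi, read 8.10 against 8.67, and all 3 of its probe sets lay below 0, between -0.66 and -0.10. Rab40b, a Rab that works in ubiquitin ligases, had the highest difference of any Rab that passed, 0.58, from 5.73 against 5.14. That lay just short of the 1.5-fold line, and came to 1.05-fold with the WT value raised to the median.

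Plasma membrane syntaxins, the target SNAREs of granule release, did not share a direction. Stx3 read 7.44 on the KO array and 6.72 on the WT array, a difference of 0.72, the largest above 0 of any passing member. Of its other 3 probe sets, 1 passed through the KO array alone and so had to read higher there, and the 2 that did not pass lay on both sides of 0. The mean of all 4 was 0.24. Stx2 read 8.15 against 8.90 at its only probe set, a difference of -0.75 or 1.68-fold lower. Stx4a, the annotation's name for syntaxin 4, which pairs with Snap23 in granule release, read 9.02 against 9.18. Stx11, the syntaxin of cytotoxic granule release, read 11.86 against 11.91, with both probe sets slightly below 0, at -0.18 and -0.06. These values put Stx3 and Stx2 on opposite sides and the other pair close to 0.

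SNAP-25 family genes were the only role group with several passing genes in which all read lower, 4 of 4, with a median of -0.38. Of all genes that passed, 55.1% read below 0. Snap25 passed through the WT array alone and so had to read lower on the KO array. Snap23, the family member of most non-neuronal cells, read 11.33 against 11.46, and its 3 probe sets lay between -0.35 and -0.04. Snap29, which serves autophagosome fusion, read 8.79 against 9.02, with probe sets up to 0.15. Snap47 read 7.62 against 8.16, a difference of -0.54. Snap25, the neuronal member, read 5.39 against 6.24, a difference of -0.85, at weak signal and with a second probe set, below the filter, at 0.29. With its KO value raised to the array median, Snap25 was 1.49-fold lower, and Snap47, with both values above the median, 1.45-fold lower. Averaging all probe sets gave a group median of -0.23 with all 4 genes still below 0.

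The VAMPs, the SNAREs carried by the vesicle, sat close together near 0, with all 7 within 1.5-fold, 5 above 0 and a median of 0.13. Vamp8, a SNARE of granules in several blood cells, read 12.22 against 12.13. Vamp2, of secondary and gelatinase granules, read 10.99 against 10.86, and Vamp7, a VAMP of lysosomes and primary granules, read 9.10 against 8.90. None of these differed by more than 0.19, and the second probe sets of Vamp2 and Vamp7 lay below 0, at -0.29 and -0.26. Vamp3, of recycling endosomes, had 5 passing probe sets, from -0.05 to 0.13. Vamp1 read 7.34 against 7.12, with probe sets at 0.23 and -0.24. Vamp5 was the lowest, at 9.04 against 9.34, with both probe sets below 0. With the mean of all probe sets the group median turned to -0.01.

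Endosomal and Golgi syntaxins and their partners Vti1a and Vti1b showed no common direction. Of 10 genes, 5 read below 0 and 5 above, all within 1.5-fold, and the median of -0.01 was 0.03 after quantile or loess scaling. Stx12, of recycling endosomes, was the lowest, with 9.64 against 10.14, but its second probe set was at 0.16. Stx18, of the ER, read 8.96 against 9.27, and its 5 probe sets all lay below 0, from -0.69 to -0.03. Stx16, of the trans-Golgi network, was the highest, at 11.07 against 10.91. Stx17, the autophagosome syntaxin, had 4 probe sets all above 0, from 0.09 to 0.22.

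**Figure D3:**
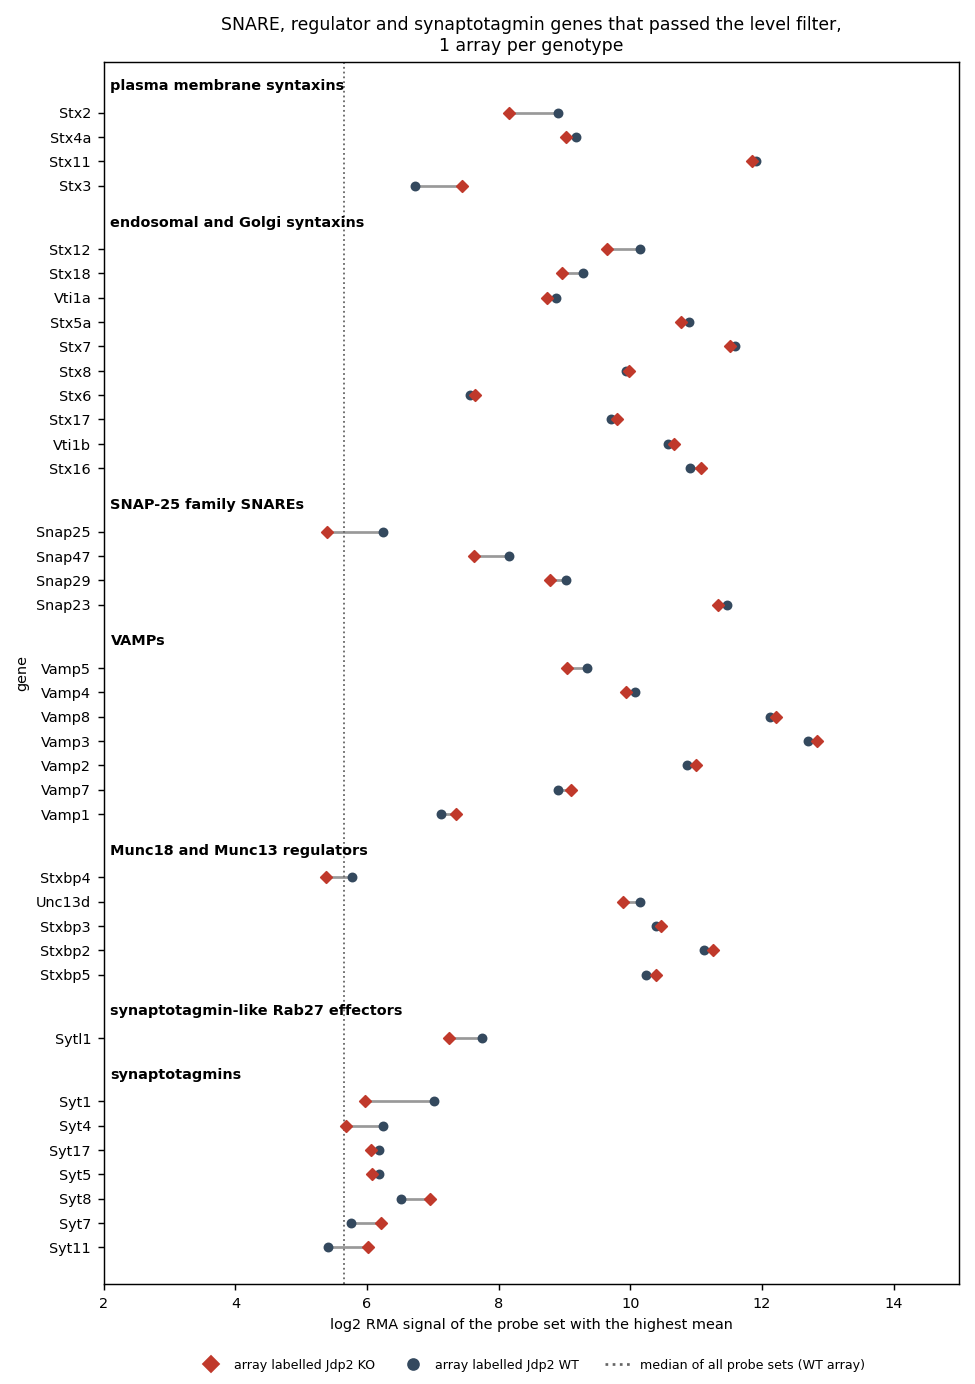
Log2 signal (x axis) of each SNARE, regulator, synaptotagmin-like and synaptotagmin gene that passed the level filter on the array labelled KO (red diamonds) and the array labelled WT (dark circles), grouped by role; the dotted line is the median of all probe sets on the WT array. The VAMP pairs nearly overlap, while Stx2 and Snap25 read lower and Stx3 higher on the KO array.

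Regulators that prepare SNAREs for fusion differed little. Unc13d, which primes granules for release, read 9.88 against 10.15 at its only probe set, a difference of -0.27. Stxbp2, the Munc18 protein that pairs with Stx11 and Stx3, read 11.26 against 11.12, with its 3 probe sets between 0.05 and 0.18. Stxbp3, the partner of syntaxin 4, read 10.47 against 10.39, and its second probe set was at 0.34. The priming factor thus read slightly lower and both Munc18 genes slightly higher. Stxbp5, also called tomosyn, read 10.39 against 10.24, but 2 of its 3 probe sets lay below 0, at -0.19 and -0.49. Stxbp4 read 5.37 against 5.77, or 1.08-fold once the KO value was raised to the median.

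Among synaptotagmin-like proteins, which link Rab27 to membranes, 1 of 3 genes passed. This was Sytl1, a Rab27a effector of neutrophils, which read 7.25 against 7.74 at its only probe set, a difference of -0.49 or 1.41-fold lower. Sytl2 and Sytl4 did not pass. Of the synaptotagmins, a family that includes calcium sensors of vesicle release, 7 of 16 passed, with a median of -0.10. Syt1, the sensor of synaptic vesicles, read 5.97 against 7.02, 2.08-fold lower. Its other 3 probe sets did not pass and ran from -0.35 to 0.17, and the mean of all 4 was -0.34. Syt4 read 5.67 against 6.24. Syt11 read 6.01 against 5.41 and passed through the KO array alone, and it was 1.29-fold higher with the WT value raised to the median. Syt7, a synaptotagmin of lysosomes, differed by 0.46 and Syt8 by 0.44. The group thus showed no common direction, and its signals were weak.

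As the core of granule release, 15 measured genes were grouped: Rab27a, Rab27b, Rab3d, Rab37, Unc13d, Sytl1, Stx3, Stx4a, Stx11, Snap23, Vamp2, Vamp7, Vamp8, Stxbp2 and Stxbp3. All 15 passed, 7 read below 0 and 8 above, and 14 lay within 1.5-fold, with Stx3 the exception. Their median was 0.08. With the mean of all probe sets for the same 15 genes it was -0.08, and 9 read below 0. The cargo of these granules differed in another way on the same arrays. Of 6 primary granule genes, 5 were at least 2-fold higher on the KO array, beside 3.06% of all genes, with a median of 3.24. Of these 6, Ctsg and Prtn3 had WT values below the array median, so they passed through the KO array alone and had to read higher there. With those WT values raised to the array median, the list median was 2.17 and the count still 5. Ctsc also had a second passing probe set at -0.61. The 10 secondary and gelatinase granule genes had a median of -0.09 and none reached 2-fold.

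**Figure D4:**
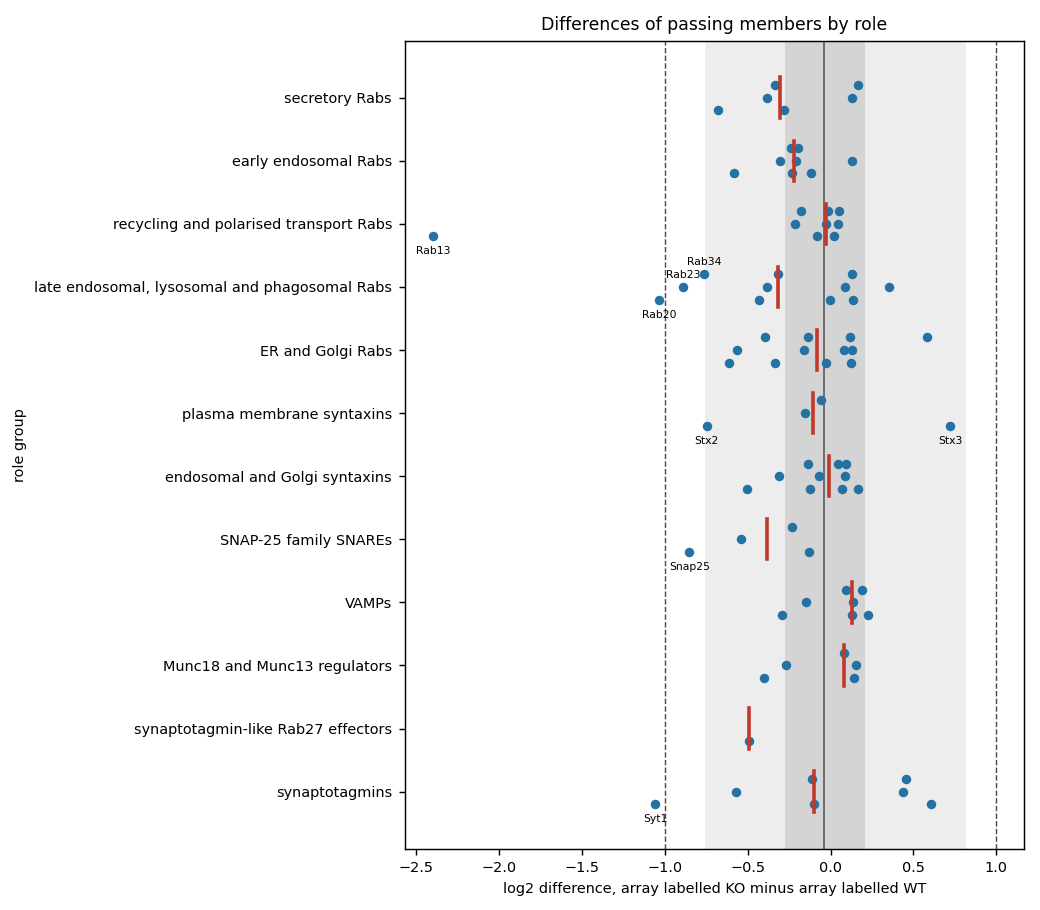
Log2 difference, KO minus WT (x axis), of each member that passed the level filter, by role group (y axis); red bars are group medians, the dark band runs from -0.27 to 0.20 (25th to 75th percentile) and the light band from -0.75 to 0.81 (5th to 95th percentile) of all genes that passed, the solid line is their median and dashed lines mark 2-fold. Most members lie inside the light band, and Rab13, Rab20 and Syt1 lie beyond the lower dashed line.

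Repeated probe sets gave a check within the arrays, though they share the same RNA and say nothing of spread between mice. Of 46 members with at least 2 passing probe sets, 17 had all of them below 0, or 37.0%, beside 31.9% of all such genes. A further 9 had all of them above 0, or 19.6%, beside 20.3%, and 20 had them on both sides, or 43.5%, beside 47.7%. A probe set that passed through 1 array alone had to read higher there, so the counts were repeated with probe sets whose values both reached the array medians. Of 43 members with at least 2 of those, 16 had all below 0, or 37.2%, beside 33.0% of all such genes, and 8 had all above 0, or 18.6%, beside 20.2%. Rab23, Rab5b, Rab37, Rab43, Rab24, Rab28, Rab22a, Snap23, Stx18 and Vamp5 were among the 16. The 8 were Rab6a, Rab7b, Rab12, Rab31, Stx6, Stx17, Stxbp2 and Stxbp3. Rab8a was the only member whose passing probe sets lay on both sides of 0 and spanned at least 1.

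**Figure D5:**
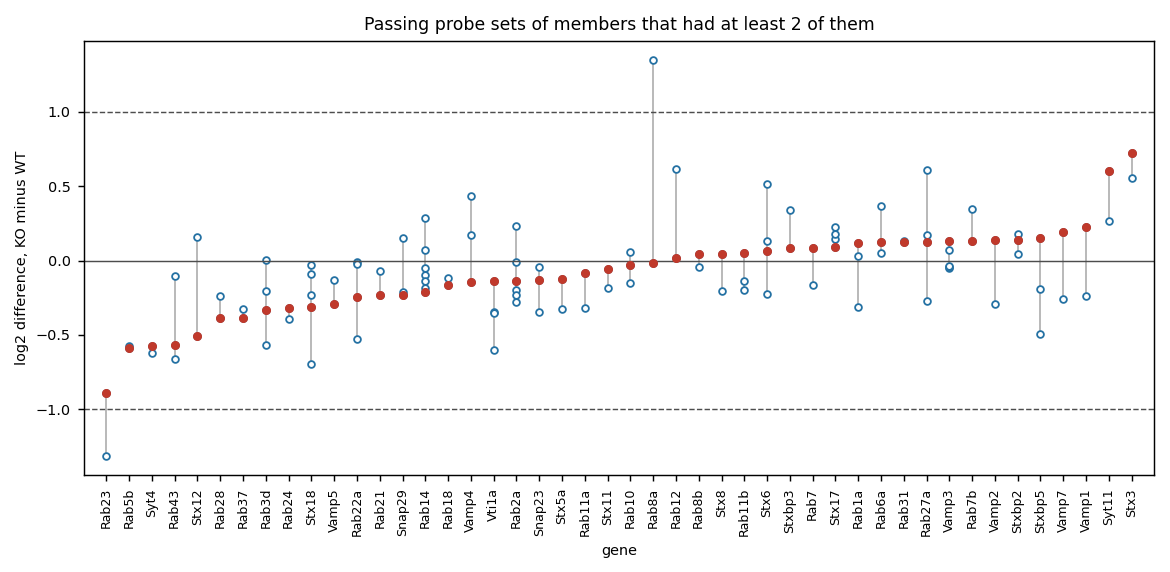
Log2 difference, KO minus WT (y axis), of every passing probe set of the 46 members with at least 2 of them (x axis, ordered by the probe set with the highest mean, in red; the other probe sets are open circles); dashed lines mark 2-fold. Both probe sets of Rab23 and of Rab5b lie below 0 and the 4 of Stx17 above 0, while those of Rab8a run from -0.02 to 1.35.

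Genes that switch, modify or tether these proteins were also read, from 7 lists written by hand with earlier results of these data known. Of 120 that passed, 88 read below 0, or 73.3%, beside 55.1% of all genes, with a median of -0.18. Rims1, Rph3al, Sec22a, Dennd5b and Tbc1d10a passed through the WT array alone and so had to read lower on the KO array. Tbc1d4 and Unc13b passed through the KO array alone and had to read higher there. At 2-fold, 1 of the 120 was higher, beside 3.06% of all genes, and 3 were lower, beside 2.33%. At the smaller size 16, or 13.3%, were at least 1.5-fold lower, beside 8.86% of all genes. With a loess trend on level removed, 82 of the 120, or 68.3%, read below 0, beside 50.7% of all genes, and the median was -0.12. Rab effectors had 18 of 21 genes below 0 and a median of -0.25, and Rab activators had 19 of 25 and the same median to 2 decimals. Inactivators of Rabs had 15 of 26 below 0 and a median of -0.08.

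The pathway genes past 2-fold were the following. Usp6nl, an inactivator of Rab5, read 8.46 on the KO array and 6.80 on the WT array, 3.16-fold higher, with its second passing probe set at 0.49. Vps33b, which acts with Vipas39 in the making of platelet granules, read 6.03 against 7.62, 3.01-fold lower at its single probe set, while Vipas39 differed by -0.15. Dennd2a, a Rab activator, read 8.09 against 9.53, 2.71-fold lower, but its second passing probe set was at -0.14. Rims1, a Rab3 effector of synapses, read 5.44 on the KO array and 6.45 on the WT array, or 1.73-fold once the KO value was raised to the median. Each of the 4 thus rested on 1 probe set for its size.

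The exocyst, which tethers vesicles to the plasma membrane, had 7 of 9 genes below 0 and a median of -0.13. Beside this list and those that follow, 55.1% of all genes read below 0, with a median of -0.04. SNARE recycling factors and other SNARE and SM genes had 19 of 25 below 0 and a median of -0.21. Genes of Rab prenylation and GDI had 4 of 6 below 0 and a median of -0.26, with Gdi2, which extracts Rabs from membranes, at 0.09. The HOPS and CORVET tethers of lysosome fusion had 6 of 8 below 0 and a median of -0.08, with 4 of 8 below 0 after quantile or loess scaling.

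Jdp2 is known to bind the AP-1 motif TGACTCA and the related CRE motif TGACGTCA, so both were searched, on either strand, in the RefSeq promoter windows, which run from 250 bases before to 50 after a start. A match is a description of letters and not of binding. Of the members, 87 had a window in the table. TGACTCA or its reverse complement TGAGTCA occurred in windows of 6 of them, or 6.90%, beside 5.95% of all genes with a window. TGACGTCA occurred in windows of 3, or 3.45%, beside 2.03% of all genes. The motifs do not overlap in these windows, and none of Rab13, Rab20 and Syt1 held either.

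The matches in members that passed the level filter are shown in lower case with the motif in capitals, 5′ to 3′, with GRCm38.p6 coordinates, so that they can be set beside the differences of these genes.
Rab34, chr11:78188342-78188402, plus strand: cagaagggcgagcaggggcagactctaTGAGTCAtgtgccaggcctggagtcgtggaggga
Rab15, chr12:76818586-76818624, minus strand: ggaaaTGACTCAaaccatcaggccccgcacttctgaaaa
Rab39b, chrX:75578201-75578261, minus strand: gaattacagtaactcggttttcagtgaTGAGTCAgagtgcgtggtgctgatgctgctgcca
Syt8, chr7:142434651-142434711, plus strand: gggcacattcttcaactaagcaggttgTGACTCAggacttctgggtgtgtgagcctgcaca
Rab5a, chr17:53479179-53479240, plus strand: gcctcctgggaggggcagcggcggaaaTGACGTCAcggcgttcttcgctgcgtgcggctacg
Stxbp3, chr3:108840576-108840637, minus strand: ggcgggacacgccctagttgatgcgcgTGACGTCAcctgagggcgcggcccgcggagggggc

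The motif began 58 bases before the start of Rab34, 245 before that of Rab15, 3 before that of Rab39b and 172 before that of Syt8. In Rab5a it began 28 bases and in Stxbp3 108 bases before the start. The differences of these genes lay on both sides of 0: -0.77 for Rab34, -0.21 for Rab15, -0.12 for Rab5a, 0.08 for Rab39b, 0.08 for Stxbp3 and 0.44 for Syt8. The genes with a match did not share a direction.

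The 26 members that did not pass the level filter were read near background and are given by range only. Their differences ran from -0.98, for Rab9b, to 0.59, for Rab6b, and 12 of them lay below 0. None reached 2-fold. Probe sets annotated with several symbols were left out, among them a pair shared with Sytl3 and 1 shared with Vamp1, and all 3 read lower on the KO array, by -1.09, -0.65 and -0.66, at values below the array medians.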

How the data were processed

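RNA of sorted bone marrow neutrophils was read on 2 Affymetrix arrays, 1 per genotype. The values deposited are log2 signals per probe set, and the submitters' processing notes name RMA without version or settings. RMA makes no detection call, so background remains in weak values and understates their folds. No genome build is named by the files, so coordinates come only from the RefSeq promoter table (GRCm38.p6), in which 87 members matched by Entrez identifier.

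Of 45037 probe sets that are not controls, 34945 had 1 gene symbol in the platform annotation, which can be old, 932 had more than 1 and were left unnamed, and 9160 were unlisted. For each gene the probe set of highest mean signal was taken, and a gene passed when its higher value reached the median of all probe sets on that array. Updating symbols through Entrez identifiers against a table of assembly GRCm38.p6 gave the same 110 members. With 1 array per group no test was possible: genes were counted at 2-fold, with 1.5-fold beside it, next to the same share of all genes that passed. Role groups and pathway lists were written by hand. The members and lists were chosen with earlier results of these data known. Named genes were the members past 2-fold, the up to 3 largest absolute differences of each role group, the core genes of granule release, members whose passing probe sets disagreed by at least 1, and pathway genes past 2-fold; other members were named after their values were seen. The calculation was tested on simulated data. Python 3.11.15, pandas 2.3.3 and statsmodels 0.14.6 (lowess, span 0.3) were used. Alternatives were 3 other level filters, 3 scalings, the mean of all probe sets, probe sets without the maker's suffixes for shared sequence, updated symbols, the 1.5-fold line and, added after seeing the data, values below the array median raised to it.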

Additional observations from a re-analysis of the deposited data

How the results depend on the processing

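No paired analysis was possible because each genotype had 1 array. The count of members at least 2-fold lower, 3, was 1 with the level filter at the 75th percentile, where only Rab20 was left. It was 2 with both values required above the array median (Rab20 and Syt1), after quantile or loess scaling (Rab13 and Syt1) and when all probe sets were averaged (Rab13 and Rab20). At 1.5-fold, 2 members were higher and 10 lower. With values below the array median raised to it, an alternative chosen after seeing the data, it stayed 3. No member was 2-fold higher under any alternative that kept the 2-fold rule. The median of the members stayed below 0 throughout, from -0.14 to -0.08, and that of all genes from -0.06 to -0.01. The share of members below 0 ran from 58.2% to 72.9%, the latter with the mean of all probe sets, where 58.7% of all genes read below 0. Of 43 named members, 38 kept their sign under every alternative in which they passed; Stxbp5, Vamp1, Vamp2 and Vamp7 turned below 0 with the mean of all probe sets, and Rab8a turned above 0 there and after loess. The signs of Rab8a, Rab9 and Rab10, all near 0, differed between scalings. With 1 array per genotype, none of these alternatives bears on the spread between mice.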
